A study of Mus musculus with 16 samples.

Results

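Small RNA of exosomes was compared between AFT024 and BFC012, which are stromal cell lines from the fetal liver of C57BL/6 mice at 14.5 dpc (days post coitum). By its label AFT024 is a line with capacity to support hematopoietic stem and progenitor cells, a capacity that BFC012 lacks. The comparison rests on the 4 samples labelled as small RNA of exosomes, 2 for each line, out of 16 samples in the series. The small RNA of the cells of both lines, with 2 samples each, is set beside it. No genotype change or treatment is labelled in any group. RNA from several exosome preparations was pooled and then divided into 2 technical sequencing replicates, which the authors merged, so each group has 1 value and no replicate check. Each kind of line is 1 line, and the labels give no culture serum. A difference tied to the support capacity therefore cannot be told apart from any other difference between these 2 lines or their preparations.

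Exosomes are small vesicles that cells release and that carry RNA, among it microRNAs (miRNAs). A miRNA is cut from a hairpin precursor, and either arm of the hairpin (5p or 3p) can be loaded into an Argonaute protein, where its seed (bases 2 to 8) pairs with messenger RNAs and lowers their output. In the fetal liver, stromal cells surround the expanding hematopoietic stem cells, and several miRNAs below are known for roles in blood cells, in the Hox gene clusters or at imprinted loci.

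The arms on which the results turn are shown here with their mature sequences, 5′ to 3′, because members of a seed family did not all differ alike between the lines. The sequences are from RefSeq (GRCm38.p6), in which 537 of the 714 arms analysed (75.2%) had an entry, and capitals mark the seed. The first set shares 1 seed between miR-351-5p, from a cluster with every kept arm lower in AFT024 exosomes, and the miR-125 arms.
miR-351-5p: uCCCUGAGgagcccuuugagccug
miR-125a-5p: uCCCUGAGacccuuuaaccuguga
miR-125b-1-5p: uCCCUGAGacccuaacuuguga
From the same X-linked cluster, miR-322-5p has the miR-16 seed and miR-503-5p a seed that differs from it only in the last base.
miR-322-5p: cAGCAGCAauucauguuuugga
miR-16-1-5p: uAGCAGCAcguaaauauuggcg
miR-503-5p: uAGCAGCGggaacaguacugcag
The miR-196 and miR-10 arms come from the Hox clusters. Counted from the 5′ end, miR-196b-5p differs from miR-196a-2-5p only by A12C, and miR-10b-5p differs from miR-10a-5p only by U12A (the first-named base is that of the a form).
miR-196a-2-5p: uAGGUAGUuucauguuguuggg
miR-196b-5p: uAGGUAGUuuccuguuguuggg
miR-10a-5p: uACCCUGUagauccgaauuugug
miR-10b-5p: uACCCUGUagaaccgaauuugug
The miR-221 and miR-222 arms were both higher in AFT024 exosomes, while miR-27a-3p and miR-27b-3p, which differ only by C19U, went opposite ways.
miR-221-3p: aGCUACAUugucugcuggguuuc
miR-222-3p: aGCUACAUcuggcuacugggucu
miR-27a-3p: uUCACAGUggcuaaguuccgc
miR-27b-3p: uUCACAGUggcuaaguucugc
The 3p arms of miR-34b and miR-34c share a seed and were both lower, and the remaining arms stand at the ends of the range or mark red blood cells.
miR-34b-3p: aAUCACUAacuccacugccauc
miR-34c-3p: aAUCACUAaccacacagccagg
miR-146b-5p: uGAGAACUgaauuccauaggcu
miR-132-3p: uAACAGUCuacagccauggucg
miR-676-3p: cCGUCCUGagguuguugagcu
miR-451a-5p: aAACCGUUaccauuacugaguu

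The exosome groups held 1120450 miRNA reads for AFT024 and 1247068 for BFC012, and the cell groups 17293776 and 17547485. Of 2386 arms listed, 714 had a normalized value of 10 or more in at least 1 exosome group, which is about 4 reads. Ratios below are AFT024 over BFC012. Log2 ratios were taken on the deposited values after adding 1. Folds were taken on reads with the deposited scaling, with exact Clopper-Pearson intervals at 95% that cover counting error only. In such bulk RNA, fewer vesicles of a kind and less RNA per vesicle cannot be told apart.

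AFT024 exosomes had less of the X-linked miR-322 to miR-542 cluster, of miR-196 and miR-10a, of miR-146b and of miR-132. They had more of miR-221 and miR-222, of miR-676, miR-672, miR-615 and miR-149, and of the leukocyte miRNAs miR-142a and miR-223. Of the 714 arms, 180 (25.2%) were at least 2-fold higher in AFT024 exosomes and 162 (22.7%) at least 2-fold lower. When reads were scaled to RPM (library totals) without the most abundant arm, 229 were higher and 128 lower, which moved the higher share of these calls from 52.6% to 64.1%. The whole counting interval lay past 2-fold for 57 higher arms (7.98%) and 55 lower arms (7.7%). Those arms held 20.5% of AFT024 exosome reads and 30.6% of BFC012 exosome reads. The median log2 ratio over all 714 arms was 0.09, with quartiles of -0.89 and 1.01. Median-of-ratios factors, which centre the ratios of arms with reads in both groups, moved this median by only -0.008. The near-equal split under the deposited scaling is therefore partly set by the scaling and is not a result about the lines.

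**Figure D1:**
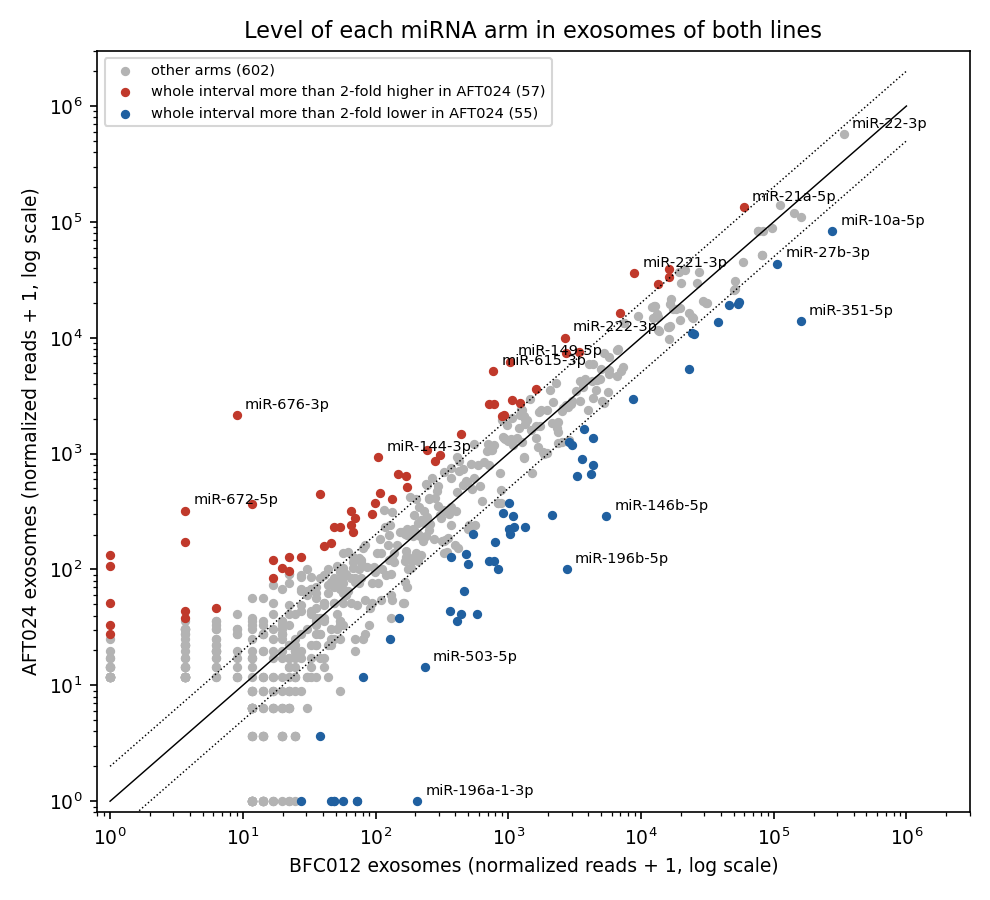
Level of each of the 714 arms in BFC012 exosomes (x) and AFT024 exosomes (y), as deposited normalized reads plus 1 on log scales, with 1 point per arm. The solid line marks equal levels and the dotted lines a 2-fold difference; 57 arms (red) and 55 arms (blue) have their whole counting interval beyond these lines, among them miR-676-3p above and miR-351-5p below.

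Some of the arms with the most reads also differed between the exosomes of the lines. miR-22-3p, a widely expressed miRNA, led in both and had 213807 reads in AFT024 exosomes and 126642 in BFC012 exosomes, a fold of 1.70 (1.69 to 1.71). It made up 19.1% and 10.2% of the reads. miR-21a-5p, known for its high level in proliferating and inflamed tissue, had 50037 and 22359 reads and was 2.25-fold higher in AFT024 exosomes (2.22 to 2.29). In the cells, miR-21a-5p had 3140349 and 1925864 reads, a smaller fold of 1.65. miR-10a-5p and miR-351-5p went the other way, with 103999 and 60005 reads in BFC012 exosomes against 31101 and 5183 in AFT024 exosomes. Levels of miR-182-5p hardly differed, with 31185 and 31171 reads, and the interval of its fold ran from 0.991 to 1.02.

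All 12 kept arms of the miR-322 to miR-542 cluster were at least 2-fold lower in AFT024 exosomes (22.7% over all 714 arms). All 12 had their whole interval past 2-fold (7.7% over all arms). This cluster (human miR-424 to miR-450) includes miR-322 and miR-503, which are known to target cell cycle genes. Its median log2 ratio was -2.34, against 0.09 over all arms. Summed over the cluster, AFT024 exosomes had 7393 reads (0.660%) and BFC012 exosomes 67627 (5.42%), so the cluster was 9.09-fold higher in BFC012 exosomes (8.88 to 9.32). In cells 8 of the 12 arms were 2-fold lower in AFT024, with a median of -1.25. Hairpins of 5 of these miRNAs lie within 10 kb of each other on the minus strand of chromosome X (chrX:53047997-53054349, mm10), and all 10 arms of them were lower. The positions of the miR-450a-1 and miR-450a-2 hairpins, whose 5p arms are among the 12, are not given here.

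miR-351-5p carried most of these reads. It had 5183 reads in AFT024 exosomes and 60005 in BFC012 exosomes, 11.5-fold higher in BFC012 (11.2 to 11.8). In cells it had 65439 and 466777 reads and was 7.07-fold higher in BFC012 (7.01 to 7.13), so the exosome difference was the greater one beyond counting error. The miR-125 arms with its seed differed far less: miR-125a-5p had 11642 and 19371 exosome reads, a log2 ratio of -0.73, and miR-125b-1-5p had 7520 and 11847, a log2 ratio of -0.65.

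Arms of this cluster did not move by the same amount in exosomes and cells. miR-503-5p had 5 reads in AFT024 exosomes and 88 in BFC012 exosomes, 17.5-fold higher in BFC012 (7.22 to 55.2), but 113 and 139 in the cells, where the interval of 0.944 to 1.58 included no difference. miR-542-5p had 16 and 136 exosome reads, 8.45-fold higher in BFC012 (5.02 to 15.2), and 456 and 399 cell reads, with a log2 ratio of 0.20. For both arms the lines were thus clearly apart in exosomes and nearly level in cells. miR-322-5p had 1110 and 3290 exosome reads, 2.95-fold higher in BFC012 (2.75 to 3.16), and 49207 and 159341 cell reads, 3.21-fold higher (3.18 to 3.24). Over the 12 arms, the exosome ratio lay below the cell ratio with separate intervals for 9, above it for 2 and overlapped for 1. Over all 714 arms these counts were 162, 127 and 425.

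**Figure D2:**
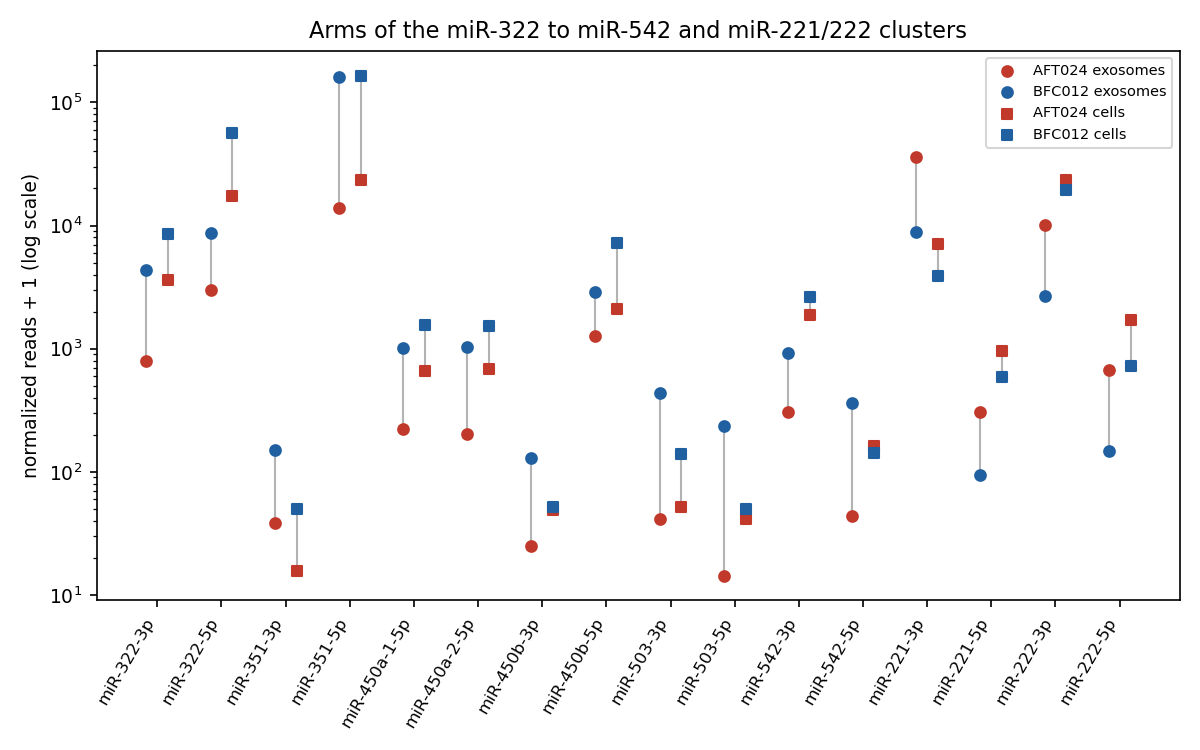
Deposited normalized reads plus 1 (log scale) of the 12 kept arms of the miR-322 to miR-542 cluster and the 4 arms of the miR-221 and miR-222 cluster, with 1 merged value per group and a grey line joining both lines. Circles are exosomes and squares cells; in exosomes the AFT024 value (red) lies below that of BFC012 (blue) for all 12 arms of the first cluster and above it for the 4 arms of the second.

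The miR-221 and miR-222 cluster, also on chromosome X (chrX:19146294-19146971, minus strand), was higher in AFT024 exosomes in all 4 arms. All 4 were at least 2-fold higher and had their whole interval past 2-fold (25.2% and 7.98% over all 714 arms). These miRNAs are known to target the stem cell factor receptor Kit and the cell cycle inhibitor Cdkn1b. miR-221-3p had 13558 reads in AFT024 exosomes and 3350 in BFC012 exosomes, a fold of 4.07 (3.92 to 4.23). miR-222-3p, which has the same seed, had 3747 and 1000 reads, a fold of 3.77 (3.51 to 4.05). Both passenger arms were on the same side, miR-221-5p at a log2 ratio of 1.69 and miR-222-5p at 2.19. The cells differed less: miR-221-3p was 1.81-fold higher in AFT024 cells (19996 and 11129 reads) and miR-222-3p 1.22-fold (65890 and 54606 reads). For all 4 arms the exosome interval lay above the cell interval, as it did for 127 of all 714 arms.

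miRNAs of the Hox clusters were mostly lower in AFT024 exosomes, with 7 of 11 kept arms at least 2-fold lower against 3 higher (22.7% and 25.2% over all 714 arms). With the whole interval past 2-fold, 5 were lower and 2 higher (7.7% and 7.98% over all arms). Among the 7 are the 5p arms of both miR-196a loci, which have the same mature sequence. The summed reads of the list were 40566 in AFT024 exosomes and 112211 in BFC012 exosomes. miR-10a-5p, from the Hoxb cluster, made up most of these and was 3.32-fold higher in BFC012 exosomes (3.28 to 3.37), against 1.95-fold in the cells (424829 and 835067 reads). miR-10b-5p, which differs from it by 1 base and comes from the Hoxd cluster, had 7363 and 6176 exosome reads, a fold of 1.20 (1.16 to 1.24) in favour of AFT024. It had 646 and 331 reads in the much deeper cell libraries, so its exosome reads outnumbered its cell reads in both lines.

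miR-196b-5p, from the Hoxa cluster, had 37 reads in AFT024 exosomes and 1036 in BFC012 exosomes, 27.8-fold higher in BFC012 (20.1 to 39.8). In cells it had 1084 and 49507 reads and was 45.2-fold higher (42.6 to 48.1), so the cell difference exceeded that of the exosomes. miR-196a has the same seed and is encoded in the Hoxb and Hoxc clusters. Its 2 loci give the same mature 5p arm, so their reads cannot be assigned to 1 locus with certainty. The 5p arm listed for miR-196a-2 had 37 and 312 exosome reads, 8.38-fold higher in BFC012 (5.95 to 12.1), and that for miR-196a-1 had 13 and 153. The 3p arm tells the loci apart: miR-196a-1-3p had 0 reads in AFT024 exosomes and 77 in BFC012 exosomes, at least 25.5-fold higher against a floor of 3 reads, and 0 and 571 in the cells. miR-196a-2-3p had 5 and 0 exosome reads, and 136 and 41 cell reads. miR-615-3p, also of the Hoxc cluster, was 6.67-fold higher in AFT024 exosomes (5.89 to 7.57), with 1922 and 290 reads against 14668 and 448 in cells.

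Most of the 12 highest arms with a value of 100 or more also had few reads in BFC012 cells. miR-676-3p had 804 reads in AFT024 exosomes and 3 in BFC012 exosomes, a ratio of 269.6 (91.9 to 1309.95), and 6562 and 12 reads in cells. Its 5p arm had 49 and 0 exosome reads and 961 and 0 cell reads. miR-672-5p had 120 and 1 reads in exosomes, a ratio of 121 (21.3 to 4807), and 929 and 23 in cells. miR-344b-3p had 138 and 4 exosome reads and 1814 and 45 cell reads, and miR-582-3p 166 and 14 exosome reads and 3199 and 138 cell reads. For these arms, exosomes and cells of a line stood on the same side. miR-149-5p had the most reads of these 12, with 2325 and 384 exosome reads, a fold of 6.09 (5.46 to 6.8), and 16282 and 1583 cell reads. miR-301b-3p had 45 and 6 exosome reads, a fold of 7.54 (3.21 to 21.6). Its neighbour on chromosome 16, miR-130b-3p, which was chosen after its values were seen, had 996 and 293 reads, a fold of 3.42 (2.999 to 3.91). miR-8114-3p had 64 and 1 exosome reads and 65 and 0 in cells. Of the 12, miR-1948-5p, miR-3473d-5p and the erythroid miR-144-3p were less than 2-fold apart in cells: miR-1948-5p had 40 and 0 exosome reads but 46 and 29 cell reads, and miR-3473d-5p had 48 and 8 exosome reads but 443 and 337 cell reads, and miR-144-3p is described with the erythroid arms.

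Several of the lowest arms were level between the cells of the lines. miR-146b-5p, known to restrain NF-kB signalling, had 107 reads in AFT024 exosomes and 2067 in BFC012 exosomes, 19.2-fold higher in BFC012 (15.8 to 23.5). In cells it had 12248 and 10442 reads and was 1.18-fold higher in AFT024 (1.15 to 1.22). miR-132-3p, which is induced by CREB in neurons, had 110 and 802 exosome reads, 7.25-fold higher in BFC012 (5.93 to 8.93), and 2140 and 2658 cell reads, 1.23-fold higher. In both cases the lines were far apart in exosomes with nearly equal cells. miR-145a-5p, a smooth muscle miRNA, followed the same pattern with 336 and 1355 exosome reads, 4.01-fold higher in BFC012 (3.56 to 4.53), and 2196 and 1747 cell reads, 1.27-fold higher in AFT024. miR-5108-3p had 15 and 220 exosome reads and only 7 and 8 cell reads. miR-195a-5p, of the miR-16 seed family, had 24 and 175 exosome reads, and 514 and 1221 in cells.

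The list of inflammation and activity miRNAs, which holds miR-146, miR-132, miR-155 and miR-21, had 6 of 9 kept arms lower and 3 higher (22.7% and 25.2% over all 714 arms). Its median log2 ratio was -1.16, while its summed reads were higher in AFT024 exosomes, 51427 (4.59%) against 26691 (2.14%), because miR-21a-5p made up most of them. miR-155-5p, a miRNA of activated immune cells, had 466 and 962 exosome reads, 2.05-fold higher in BFC012 (1.84 to 2.30), which was under 2-fold in RPM (log2 ratio -0.89), and a log2 ratio of -0.25 in cells.

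The let-7 family holds the best known repressors of growth-associated genes and targets of Lin28. Within it, 6 of 24 kept arms were lower and 1 higher (22.7% and 25.2% over all 714 arms), with a median of -0.32. let-7c-1-5p had 7539 and 20444 exosome reads, 2.70-fold higher in BFC012 (2.63 to 2.77), while let-7i-5p had 11127 and 7498, 1.49-fold higher in AFT024 (1.45 to 1.54). let-7f-2-5p had 5935 and 4949 reads, a log2 ratio of 0.27. Members of 1 seed family therefore stood on both sides. The cells were closer for let-7c-1-5p, with 135442 and 161484 reads, and for let-7f-2-5p, with 483617 and 494190. let-7i-5p stood on the other side in cells, with a log2 ratio of -0.45 against 0.58 in exosomes. let-7c and let-7a differ by 1 base in their mature sequence, so reads with an error could be counted for the wrong member, and how the authors treated such reads is not known here.

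The paralogous miR-23, miR-24 and miR-27 clusters on chromosomes 8 and 13 differed from each other. miR-27b-3p, of the chromosome 13 cluster, had 16307 and 39901 exosome reads, 2.43-fold higher in BFC012 (2.39 to 2.48), and was 2.46-fold higher in BFC012 cells. miR-27a-3p, of the chromosome 8 cluster, had 13900 and 7246 exosome reads, 1.93-fold higher in AFT024 (1.88 to 1.99), and 101816 and 102465 cell reads. The first difference was thus the same in exosomes and cells, and the second was seen in exosomes with level cells. miR-23a-3p differed little, with 6731 and 7424 reads. The chromosome 8 cluster was itself split, with a median of -0.13. Of its 5 kept arms, miR-24-2-5p was higher (log2 ratio 1.19) and miR-27a-5p lower (-1.19). The chromosome 13 cluster had 1 of 4 kept arms lower and 0 higher, with a median of -0.82. Over all 714 arms, 25.2% were higher and 22.7% lower.

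Other families had fewer members past 2-fold or members on both sides. Over all 714 arms, 25.2% were higher and 22.7% lower, so a count near these shares does not set a family apart. The miR-17 to miR-92 clusters had 2 of 19 kept arms higher and 0 lower, with a median of 0.26. The miR-15 and miR-16 family had 4 of 12 lower and 0 higher, with a median of -0.94. miR-16-1-5p had 9767 and 19191 exosome reads, 1.95-fold higher in BFC012 (1.91 to 2.00), although the cells had 187169 and 188134. The miR-30 family had 1 of 12 arms past 2-fold, miR-30a-5p, with 14752 and 6155 exosome reads, 2.41-fold higher in AFT024 (2.34 to 2.48), and 211711 and 255666 in cells. The miR-29 family, known to target collagen genes, had 2 of 8 higher and 1 lower, and miR-29a-3p was 2.07-fold higher in AFT024 exosomes (12506 and 6086 reads). The miR-26 family had 1 of 6 lower, and none of its 6 arms had a positive ratio. For the miR-34 family, miR-34b-3p had 240 and 1231 exosome reads and miR-34c-3p 64 and 296, both lower, while the more abundant miR-34c-5p had 6633 and 6508. The miR-103, miR-107, miR-148 and miR-152 list had 2 of 10 higher and 3 lower: miR-148a-3p was 2.41-fold higher in BFC012 exosomes (7157 and 17317 reads) and miR-148b-3p 1.74-fold higher in AFT024 exosomes (1328 and 769 reads). The miR-99, miR-100 and miR-125 families had 2 of 12 higher and 1 lower, with a median of -0.03 that turned positive in RPM (0.11).

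The miR-199 and miR-214 clusters, of mesenchymal cells, and the miR-181 family differed less between the lines in exosomes than in cells. Over all 714 arms, 25.2% were at least 2-fold higher in AFT024 exosomes and 19.7% in AFT024 cells. The miR-199 and miR-214 clusters had 1 of 8 arms higher in exosomes, with a median of 0.57, whereas all 8 were 2-fold higher in AFT024 cells, with a median of 1.17. miR-199a-2-3p had 7019 and 4755 exosome reads, a fold of 1.48 (1.43 to 1.54), and 162138 and 65826 cell reads, a fold of 2.49 (2.46 to 2.51). The miR-181 family, known for its role in lymphocyte development, had 2 of 9 higher in exosomes and 6 of 9 in cells. miR-181a-1-5p had 5004 and 2789 exosome reads, a fold of 1.80 (1.72 to 1.89), against 56517 and 8851 cell reads, a fold of 6.45 (6.30 to 6.59). The smooth muscle cluster of miR-143 and miR-145 did not follow this: 1 of 4 kept arms was higher and 1 lower in exosomes, against 0 and 0 in cells. Its most abundant arm miR-143-3p had 16962 and 21926 exosome reads and 866651 and 723977 cell reads.

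**Figure D3:**
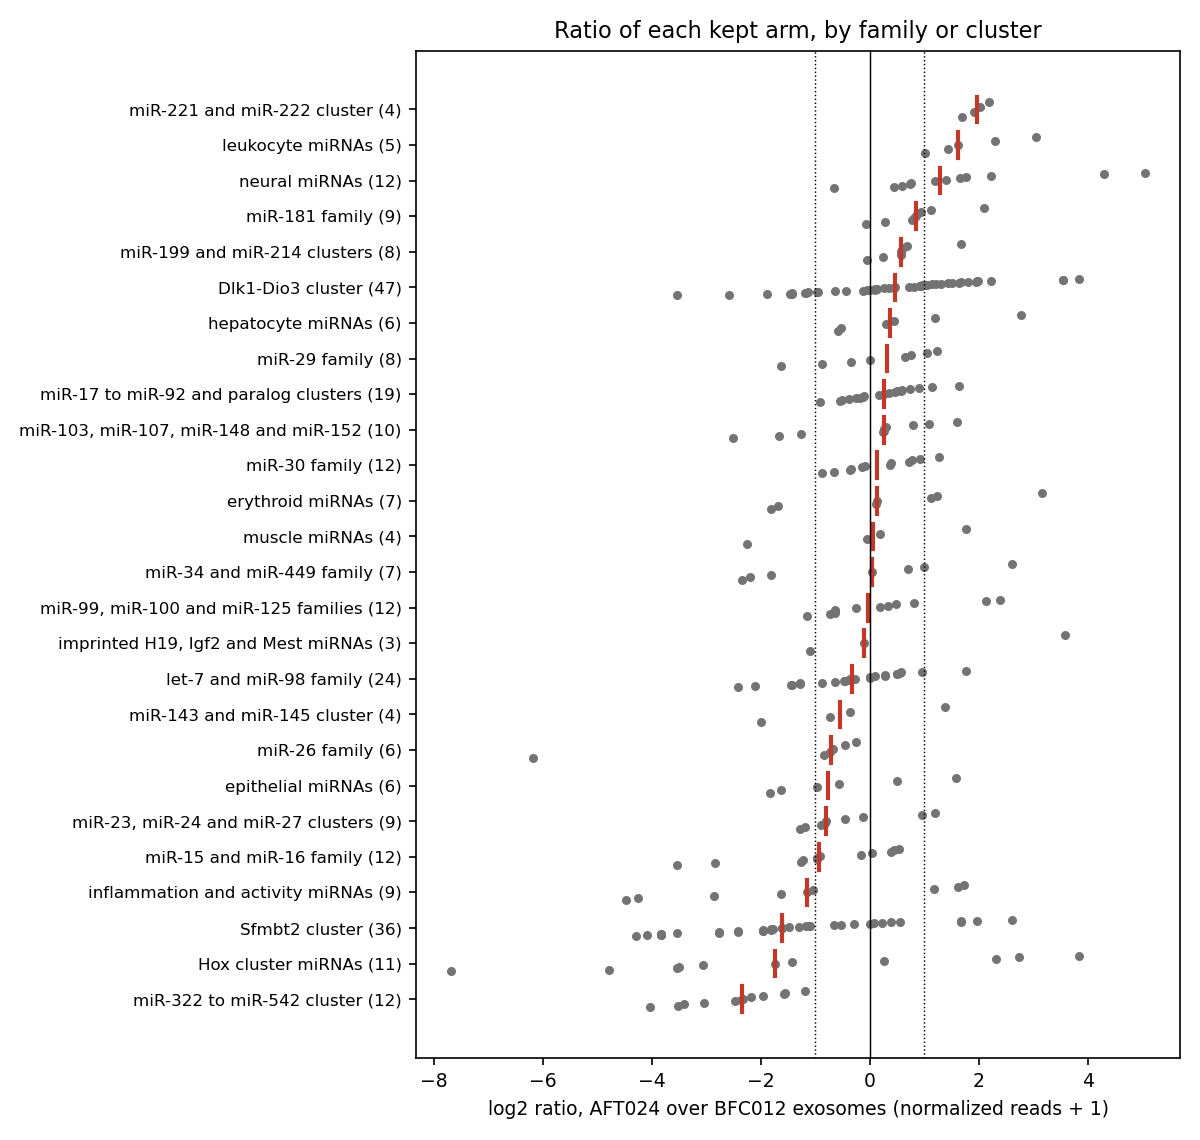
Log2 ratio of AFT024 over BFC012 exosomes (x) for each kept arm of the 26 families, clusters and marker lists with 3 or more kept arms (y, with their number), 1 point per arm and a red line at the median. Dotted lines mark 2-fold; all 12 arms of the miR-322 to miR-542 cluster lie left of -1 and all 4 of the miR-221 and miR-222 cluster right of 1.

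The imprinted Dlk1-Dio3 cluster on chromosome 12 differed between the lines far less in exosomes than in cells. It encodes many miRNAs from the maternal chromosome, and 47 of its 122 arms were kept. In cells, 44 of the 47 were at least 2-fold higher in AFT024, with a median log2 ratio of 4.61, and 19 had 0 reads in BFC012 cells. In exosomes 17 stood higher and 9 lower (25.2% and 22.7% over all 714 arms), and the median was 0.46. Summed over the cluster, the cells had 39770 and 558 reads, a fold of 71.9, and the exosomes 13819 and 10708 reads, a fold of 1.30 (1.27 to 1.33). The cluster thus took 1.23% of AFT024 exosome reads and 0.859% of BFC012 exosome reads, while its share in the cells was 0.230% and 0.00318%. The exosome ratio lay below the cell ratio with separate intervals for 35 of the 47 arms and above it for 0 (162 and 127 of all 714 arms).

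miR-127-3p, which is antisense to the imprinted gene Rtl1, had 8005 reads in AFT024 exosomes and 6342 in BFC012 exosomes, a fold of 1.27 (1.23 to 1.31), against 8639 and 164 in the cells. miR-409-3p had 653 reads in each exosome group and 1093 and 15 in the cells. miR-369-3p had 927 and 972 exosome reads and 91 and 43 cell reads. The exosomes of the lines were thus near level for these arms while the cells were apart. miR-411-5p kept part of the cell difference, with 1076 and 402 exosome reads, a fold of 2.69 (2.40 to 3.03), and 7870 and 95 cell reads, a fold of 83.6 (68.3 to 103). At another imprinted locus, Mest, miR-335-5p had 128 and 139 exosome reads against 264 and 1 in cells. The other arm, miR-335-3p, had fewer exosome reads and was 16.1-fold higher in AFT024 exosomes. Its log2 ratio was 3.58 in exosomes and 6.96 in cells, so the arms of this hairpin did not differ alike. The list of imprinted H19, Igf2 and Mest miRNAs had 1 of 3 kept arms higher and 1 lower, with a median of -0.11 that turned positive in RPM (0.04). The Sfmbt2 cluster, another imprinted cluster, had 24 of 36 kept arms lower and 4 higher, but on 194 and 372 reads in all, and 0 arms had their whole interval past 2-fold.

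**Figure D4:**
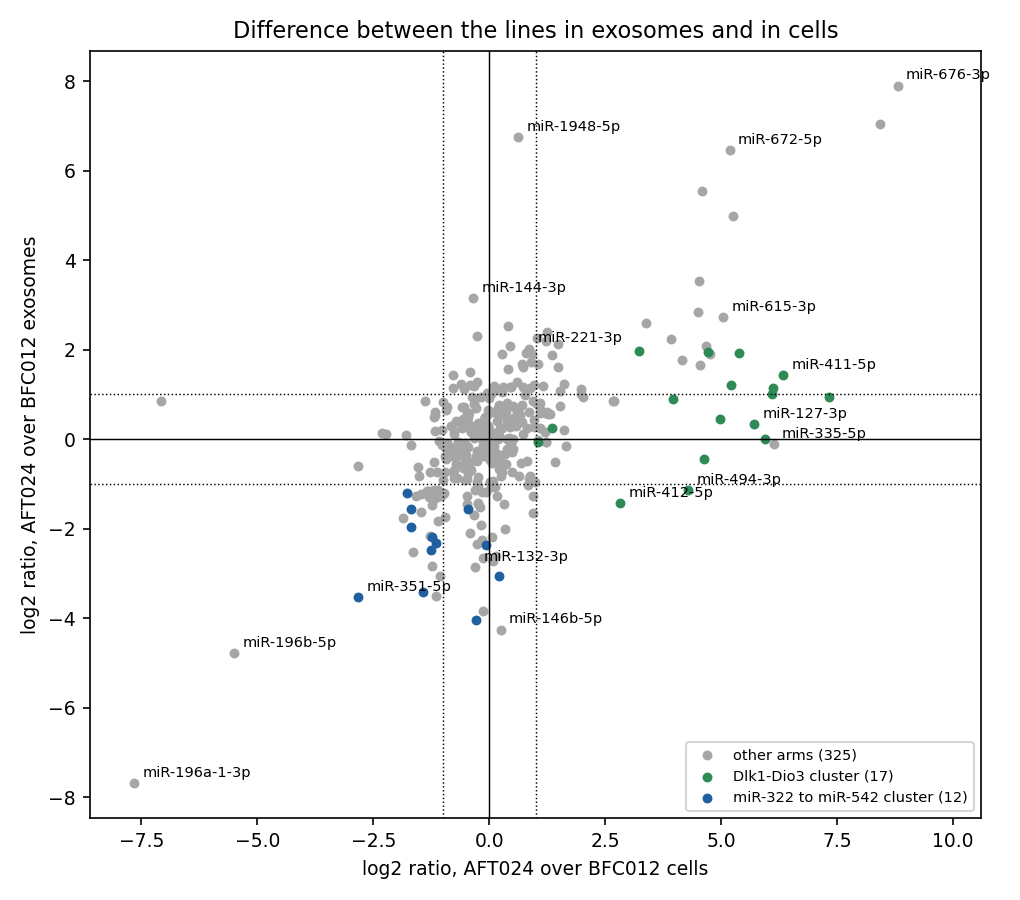
Log2 ratio of AFT024 over BFC012 in cells (x) against that in exosomes (y) for the 354 arms with a value of 100 or more in an exosome group, on deposited values plus 1; dotted lines mark 2-fold. The 17 arms of the Dlk1-Dio3 cluster (green) lie between 1.05 and 7.32 in cells and between -1.42 and 1.98 in exosomes, and those of the miR-322 to miR-542 cluster (blue) lie below -1 in exosomes.

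Markers of other cell types were compared in the same 4 groups. The 7 kept erythroid arms (miR-144, miR-451a and miR-486) took 6.66% of AFT024 exosome reads and 5.06% of BFC012 exosome reads, while their share in the cells was 0.0945% and 0.453%. miR-451a-5p, which matures without Dicer in red blood cells, had 10975 and 5080 exosome reads, 2.17-fold higher in AFT024 (2.10 to 2.25), but 25 and 38 cell reads. miR-144-3p, from the same transcript, had 347 and 39 exosome reads, a fold of 8.95 (6.42 to 12.8), and 8 and 11 cell reads. miR-486a-5p, which is hosted by the ankyrin gene Ank1, had 31218 and 28882 exosome reads and was near level, with a fold of 1.09 (1.07 to 1.10). Of the 7 arms, 3 passed 2-fold upward and 2 downward (25.2% and 22.7% over all 714 arms), and the median was 0.13.

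All 5 kept leukocyte arms were at least 2-fold higher in AFT024 exosomes, 3 of them with the whole interval (25.2% and 7.98% over all 714 arms). Their median was 1.61. They took 0.385% and 0.137% of exosome reads, with 4313 and 1708 reads, and had 170 and 80 reads in the cells. miR-142a-5p, a miRNA of all blood lineages, had 2764 and 1032 exosome reads, a fold of 2.69 (2.51 to 2.90), against 23 and 42 cell reads. miR-223-3p, a myeloid miRNA, had 320 and 105 exosome reads and 5 and 0 cell reads. miR-150-5p, a lymphocyte miRNA, had 1096 and 544 exosome reads and 137 and 33 cell reads. Summed, these arms had more reads in exosomes than in cells although the cell libraries were deeper.

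The hepatocyte list had 2 of 6 kept arms higher and 0 lower and took 0.214% and 0.147% of exosome reads, against 0.101% and 0.146% of cell reads; within it miR-122-5p had 91 and 138 exosome reads and 0 and 1 cell reads. The 4 kept muscle arms took 0.0154% and 0.0137%, with 172 and 171 reads, and miR-133a-1-3p had 75 and 78 exosome reads against 7 and 18 in cells. The endothelial arm miR-126a-3p had 320 and 160 exosome reads, a fold of 2.01 (1.66 to 2.45), and 675 and 666 in cells. With median-of-ratios factors its log2 ratio was 0.998, just under 2-fold. The other kept endothelial arm, miR-126a-5p, had more reads and was near level, with a fold of 1.08. Summed over the endothelial list the fold was 1.19 (1.11 to 1.28). Of the epithelial arms 1 of 6 was higher and 2 lower, and of the neural arms 7 of 12 were higher and 0 lower, on 334 and 140 reads. The shares over all 714 arms were 25.2% higher and 22.7% lower. The part of RNA from these cell types in the values of the Dlk1-Dio3 cluster, or in any other difference between the lines, was not tested. Without the erythroid and leukocyte miRNAs, 172 arms were higher and 160 lower.

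**Figure D5:**
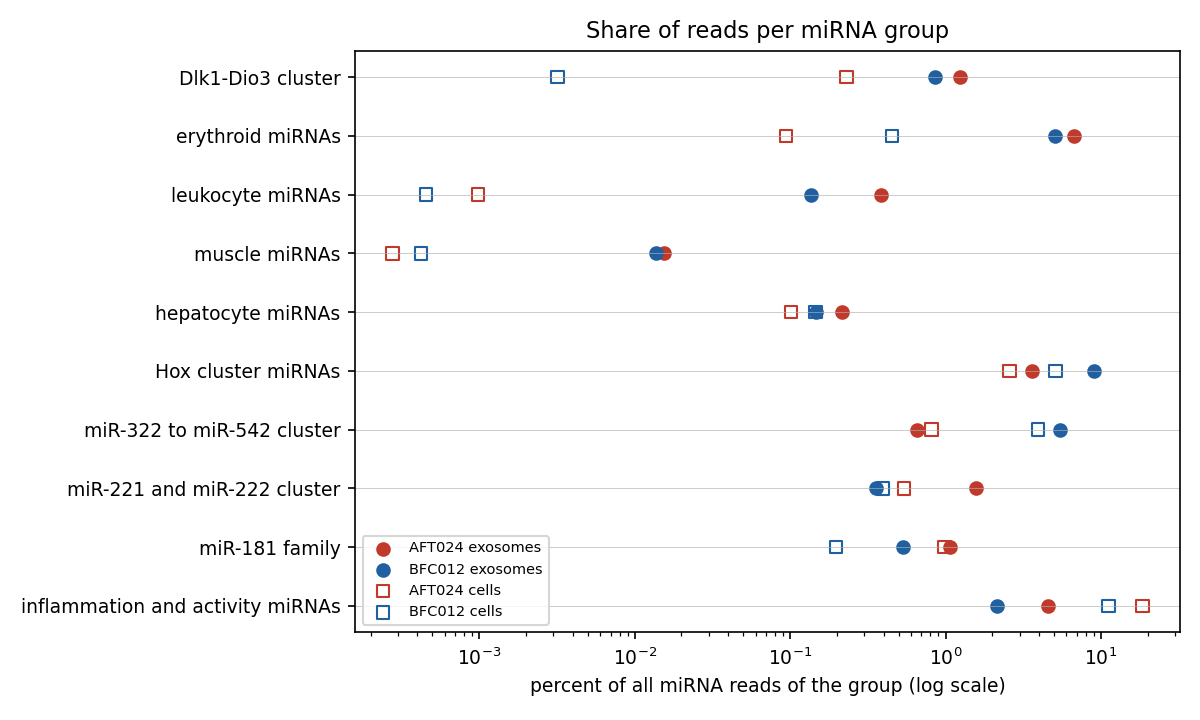
Percent of all miRNA reads of a group (x, log scale) taken by 10 families, clusters and marker lists (y) in the 4 groups, 1 merged value each; filled circles are exosomes, open squares cells, red AFT024 and blue BFC012. The erythroid and leukocyte lists and the Dlk1-Dio3 cluster have a greater share in the exosomes of both lines than in the cells of either line.

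Across arms, the ratio between the lines in exosomes and that in cells, which share no group, had a Spearman coefficient of 0.43 over the 714 arms (Pearson 0.43) and of 0.51 over the 354 arms with a value of 100 or more (Pearson 0.58). These are descriptions, since arms of a cluster or with a shared mature sequence are not independent. Of the 57 arms higher with their whole interval, 30 were also 2-fold higher in AFT024 cells, 0 lower and 27 neither. Of the 55 lower arms, 25 were also lower in cells, 2 higher and 28 neither. In cells, 141 of the 714 arms (19.7%) were 2-fold higher and 107 (15%) lower. The exosome interval lay above the cell interval for 127 arms, below it for 162 and overlapped for 425.

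Where a miRNA lies inside a gene (GENCODE M21, same strand), the polyA reads of that host gene were compared in the same groups, with polyA reads scaled within each pair by median-of-ratios factors. The named arms past 2-fold in exosomes gave 53 pairs of an arm and a host. The host's own interval lay on the side of the arm in 20 pairs (15 hosts), on the opposite side in 3 pairs (2 hosts) and included no difference in 30. Several pairs share a host or a hairpin, and the share over all polyA genes is not given here. The counts therefore cannot show whether hosts stood with their arms more often than other genes would. In many of these 30 pairs the host had 0 polyA reads in both exosome groups, as Mir155hg and Mest did, and could show no side. The hosts described here were chosen after their values were seen. Eda, the ectodysplasin gene that holds miR-676, had 8 and 0 polyA reads in AFT024 and BFC012 exosomes and 299 and 0 in cells. Nexmif, which holds miR-672, had 47 and 0 in exosomes and 83 and 0 in cells. Hoxa9, which holds miR-196b, had 24 and 495 exosome reads, 11.8-fold higher in BFC012, and 159 and 1909 in cells. Gpc1, a cell-surface heparan sulfate proteoglycan gene that holds miR-149, had 842 and 185 exosome reads, a fold of 7.96 (6.79 to 9.39), near the 6.09 of miR-149-5p.

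Some hosts matched an arm in part or not at all. Hoxc5, which overlaps both miR-615 and miR-196a-2, had 23 and 1 exosome reads and 357 and 7 cell reads, which is the side of miR-615-3p and of miR-196a-2-3p and the opposite of miR-196a-2-5p, whose sequence the miR-196a-1 locus shares. Mfsd13a, which overlaps miR-146b, was on the side of its miRNA with 50 and 167 exosome reads, 1.91-fold higher in BFC012, against 19.2-fold for miR-146b-5p, and 106 and 251 in cells, where miR-146b-5p was near level. Mest had 146 and 0 reads in the cells, the side of miR-335-5p there, and 0 reads in both exosome groups, in which miR-335-5p had similar reads. The pair of Mest with miR-335-3p, which was higher in AFT024 exosomes, is among the 53, with a host interval that included no difference. Nfyc, which holds miR-30e and miR-30c-1, was 2.55-fold higher in BFC012 exosomes (116 and 517 reads), while miR-30e-5p was 1.64-fold higher in AFT024 exosomes (5800 and 3566 reads). As miR-335-5p and miR-30e-5p did not pass 2-fold, their pairs with Mest and Nfyc are not among the 53. Besides Hoxc5, the opposite host among the 53 was 3110039I08Rik. It was 1.65-fold higher in AFT024 exosomes (1.30 to 2.10), while its arms miR-100-5p and let-7a-2-3p were lower.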

How the data were processed

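Small RNA libraries were made from the RNA left after polyA selection, per the labels' protocols. Bowtie, TopHat and Cufflinks and the build mm10 are listed in the submitters' processing notes. Which tool counted reads, and how reads matching several loci were treated, is not given in the sources used here. For small RNA, the authors' deposited table gives a normalized signal per arm, that is, reads over a size factor. Their deposited exosome table gives whole counts, although its header calls them normalized. Both gave the same reads in 100% of values (tolerance 0.01 reads). The technical replicates were merged by the authors, so each group has 1 value and no test was made. The authors' p-values, q-values and fold changes were not used, and 0 value columns of the groups stayed out of use.

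Arms with a value of 10 or more in an exosome group were kept. Calls are ratios of 2-fold or more on values plus 1. Folds between reads have exact Clopper-Pearson 95% intervals, which cover counting error only, since PCR reads without molecular identifiers are not independent molecules. The floor of 3 reads, used where a group had 0, is 2.68 and 2.41 RPM in the exosome groups. The members and the 27 lists were chosen with earlier results of these data known. Named arms were the 12 highest and 12 lowest with a value of 100 or more, the 10 with most reads in either exosome group, up to 5 per list by reads, and the other arm of a named hairpin. Not every such arm is described. Among the kept arms 54 share a mature name with another locus. Host genes used the deposited polyA pairwise tables, whose values gave whole reads (9038471 and 16344350 in the exosomes of AFT024 and BFC012). The interval code was tested on simulated data. Python 3.11.15, pandas 2.3.3, numpy 2.4.6, scipy 1.17.1 and matplotlib 3.10.9 were used.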

Additional observations from a re-analysis of the deposited data

Results flagged for a closer look

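In 2 arms the lines differed by at least 2-fold in opposite directions in exosomes and in cells, among arms with a value of 100 or more. Both belong to the Dlk1-Dio3 cluster, and the difference was not tested. miR-412-5p had 75 reads in AFT024 exosomes and 203 in BFC012 exosomes (log2 ratio -1.42), against 17 and 0 in the cells (log2 ratio 2.82). miR-494-3p had 141 and 313 exosome reads (log2 ratio -1.14), against 129 and 4 in the cells (log2 ratio 4.28).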

How the results depend on the processing

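The numbers of 2-fold arms, 180 higher and 162 lower, changed most with how low values are treated, in part because filters change how many arms are counted. Without a filter they were 378 and 429 of 1289 arms, at a value of at least 50 they were 89 and 79 of 435, and with the whole interval past 2-fold they were 57 and 55. Under the other alternatives they ran from 157 to 229 higher and from 128 to 192 lower, within 1.5 times the counts reported. These were another pseudocount (0.5 or 5), a filter over all 4 small RNA groups, scaling to RPM with and without the most abundant arm, median-of-ratios factors, 1 entry per mature name and, chosen after seeing the data, leaving out blood miRNAs or chromosome X. Scaling to RPM moved the median log2 ratio of all arms by 0.15, and by 0.30 without the most abundant arm. The balance of directions also depended on the scaling. Without the most abundant arm, the higher share of the 2-fold calls moved from 52.6% to 64.1%. Of 210 named arms, 10 changed sign in RPM, among them miR-335-5p, miR-369-3p and miR-23a-3p, and none of the 10 had a reported log2 ratio beyond 0.13 in size; 0 changed sign under the pseudocounts or the median-of-ratios factors. In RPM 5 more of the named arms passed 2-fold and 2 no longer did, and under each of 5 added and the median-of-ratios factors 1 no longer did. No paired analysis was possible because the technical replicates were merged into 1 value per group, and for the same reason no replicate could be left out. At this depth the 2-fold calls of arms with few reads are uncertain, as the counts with the whole interval show.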

Other observations

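The arms of 1 hairpin did not always differ alike between the exosomes. Of 199 hairpins with both arms kept, 120 had the same sign and 11 stood past 2-fold in opposite directions. Among the 94 with both arms at a value of 100 or more, 62 had separate intervals and 1 was opposite past 2-fold. This was miR-218-1, with 91 and 211 exosome reads for its 5p arm and 63 and 17 for its 3p arm. Its 5p arm shares a mature name with that of miR-218-2, and their log2 ratios were -1.20 and -1.17. The 3p arms of these loci had log2 ratios of 1.88 and -5.83. The 5p reads cannot be assigned to 1 locus with certainty, so the opposite directions are not certain for 1 hairpin. The following hairpins were chosen after their values were seen. The 5p arm made up 38.9% of miR-34b reads in AFT024 exosomes and 7.16% in BFC012 exosomes, against 64.1% and 64.4% in the cells. For miR-24-2 the 5p share was 68.2% and 33.6% in exosomes and 72.0% and 81.3% in cells, and for miR-365-2 it was 29.2% and 6.92% in exosomes and 43.4% and 31.6% in cells. BFC012 exosomes thus departed most from their cells in these shares. The 3p arms of miR-24-2 and miR-365-2 share a mature name with those of miR-24-1 and miR-365-1. Their 3p reads cannot be assigned to 1 locus with certainty, so neither share is certain to be that of 1 hairpin.

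The tetramer GGAG, searched in mature sequences on their own strand, was found in 3 of 53 distinct sequences (5.66%) of arms higher in AFT024 exosomes, in 4 of 51 (7.84%) of the lower ones and in 28 of all 262 (10.7%) with a value of 100 or more. CCCU was found in 9.43%, 7.84% and 11.1%. Median GC content was 47.4%, 47.8% and 48%. These features were thus similar in both directions. Of the arms at that level, 80.5% had a sequence.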
